A study of Rattus norvegicus with 12 samples.

Results

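The choroid plexus is a vascularized tissue, and 9 transcripts that mark its blood vessels and the blood within them were read in each library of whole choroid plexus from rats. They are RGS5 and MYL9 of mural cells, PLVAP and FLT1 of endothelial cells, and the haemoglobin genes HBA-A1, HBA-A2, HBA-A3, HBB and HBB-BS, and they were chosen by name among the 32883 genes quantified. Their Ensembl identifiers were taken from the gene tables of the study, and all 9 passed the filter on low values, as did 12511 genes in all. The tissue came from the brain ventricles of male Sprague-Dawley rats, 9 weeks old, which were killed under ketamine and xylazine. Of these rats, 6 were sampled 8 h into the light phase (zeitgeber time 8) and 6 others 8 h into the dark phase (zeitgeber time 20), with 1 library per rat. A different rat stands behind each value, so the phases are compared between rats. How long each rat was anesthetized before the tissue was taken is not given in the sources used here.

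Blood vessels of the choroid plexus stroma are lined by fenestrated endothelial cells, whose pores are closed by diaphragms, and are wrapped by mural cells, that is pericytes and smooth muscle cells. Red blood cells carry haemoglobin, a tetramer of alpha and beta globin chains, and circulating reticulocytes still hold the globin mRNA. In tissue taken without washing out the blood, globin transcripts can thus come from blood that remained in the vessels. Because this is bulk tissue, fewer cells of a type and less RNA per cell cannot be told apart.

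The values are TPM, read abundances normalized for transcript length and library total, so that levels can be set beside each other between genes. Choroid plexus identity was clear in every library, with TTR, the thyroid hormone carrier made by the epithelium, between 253700 and 309700 TPM. How many reads stand behind a value is not known. From the steps of weakly expressed genes, the depth relative to the mean library was 0.887 to 1.37 among light-phase and 0.884 to 1.09 among dark-phase libraries. The libraries correlated with each other at 0.958 to 0.983, and 0 pairs were identical.

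A pair of libraries stood apart in the vessel and blood transcripts. Light-phase replicate 2 held the highest value of the light phase in all 9 genes. Dark-phase replicate 5 held the highest dark-phase value of RGS5, MYL9 and PLVAP, but not of any haemoglobin gene. TTR in light-phase replicate 2 was 253700 TPM, below the 299800 to 304200 TPM of the other light-phase libraries. The phase differences of the 9 genes are given with and without light-phase replicate 2.

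To show the regions upstream of the genes that varied most closely together, the 250 bases before the start site of each haemoglobin gene are printed from RefSeq (build GRCr8), 5′ to 3′ on the strand of the gene. Entries were matched by symbol, for 8 of the 9 genes. Whether they are the same gene copies as those measured here, on another genome build, could not be checked. Capitals mark the motifs searched on both strands, which were the CACCC box, the CCAAT box (read as ATTGG on the other strand), the TATAAA element with its variant CATAAA, the GATA-type motif TGATAA and the E-box, CACGTG.
HBA-A1 (chr10:15842581-15842830, minus strand): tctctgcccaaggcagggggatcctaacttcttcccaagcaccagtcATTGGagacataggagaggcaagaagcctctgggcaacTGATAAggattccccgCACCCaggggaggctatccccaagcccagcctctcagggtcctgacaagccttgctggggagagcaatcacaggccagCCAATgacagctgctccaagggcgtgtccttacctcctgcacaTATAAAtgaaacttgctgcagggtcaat
HBA-A2 (chr10:15829139-15829388, minus strand): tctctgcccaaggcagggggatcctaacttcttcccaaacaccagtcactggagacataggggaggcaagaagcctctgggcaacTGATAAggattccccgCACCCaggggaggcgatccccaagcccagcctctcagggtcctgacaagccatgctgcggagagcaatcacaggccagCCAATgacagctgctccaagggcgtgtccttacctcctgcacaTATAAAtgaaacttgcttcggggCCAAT
HBA-A3 (chr10:15816944-15817193, minus strand): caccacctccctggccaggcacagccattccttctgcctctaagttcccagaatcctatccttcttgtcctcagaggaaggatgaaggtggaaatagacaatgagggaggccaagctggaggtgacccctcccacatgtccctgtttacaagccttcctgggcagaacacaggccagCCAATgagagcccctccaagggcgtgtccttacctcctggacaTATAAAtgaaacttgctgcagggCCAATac
HBB (chr1:167663722-167663971, minus strand): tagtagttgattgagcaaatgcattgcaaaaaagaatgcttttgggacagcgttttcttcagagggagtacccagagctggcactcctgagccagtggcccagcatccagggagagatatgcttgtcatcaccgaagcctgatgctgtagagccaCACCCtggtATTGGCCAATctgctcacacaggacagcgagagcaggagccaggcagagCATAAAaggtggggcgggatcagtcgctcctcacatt
HBB-BS (chr1:167631631-167631880, minus strand): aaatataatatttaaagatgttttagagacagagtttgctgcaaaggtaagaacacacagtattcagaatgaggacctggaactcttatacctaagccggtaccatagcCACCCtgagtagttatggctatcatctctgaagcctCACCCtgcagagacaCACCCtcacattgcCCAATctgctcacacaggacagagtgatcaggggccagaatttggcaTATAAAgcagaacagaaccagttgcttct

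In these 250 bases, HBA-A1 and HBA-A2 were identical at 241 of 250 positions (96.4%), whereas HBA-A3 shared 171 of 226 aligned positions with HBA-A1 (75.7%). The upstream regions of HBB and HBB-BS shared 162 of 226 aligned positions (71.7%). Pairs of a haemoglobin and a vessel wall gene came to 50.4 to 70.6% under the same alignment, with up to 126 gap positions. CCAAT was found before all 5 haemoglobin genes, with a copy between -81 and -71 from the start site in each, and it occurs in 34% of the 33469 RefSeq upstream regions of that length. TATAAA began at -28 in HBA-A1 and HBA-A2, at -30 in HBA-A3 and at -29 in HBB-BS, whereas HBB held CATAAA at -37. TATAAA occurs in 12.9% and CATAAA in 11.4% of all such regions. CACCC, present in 49.2% of all regions, lay upstream of every haemoglobin gene except HBA-A3, with 3 copies in HBB-BS. TGATAA, which occurs in 7.97% of all regions, began at -165 in both HBA-A1 and HBA-A2. Among the vessel wall genes, PLVAP held TGATAA at -130, TATAAA at -60 and CACCC, FLT1 held TATAAA at -75 and CACCC, and RGS5 held none of the motifs. The CACGTG E-box, bound by clock activators, occurs in 5.59% of all regions and in none of the 8 regions matched here. In HBB, the copies of CCAAT at -86 (other strand) and at -81 are adjacent, and no motifs overlap in the printed regions. A match is only a run of letters, and no binding was measured.

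The haemoglobin genes other than HBA-A3 were among the most abundant transcripts of the tissue. HBA-A1, an alpha globin, averaged 5751 TPM over the 12 libraries and ranked 14th among the genes tested. HBA-A2, also an alpha globin, averaged 2307 TPM, followed by the beta globins HBB with 1898 TPM and HBB-BS with 612.6 TPM. The vessel wall genes were lower, with RGS5 at 161.4, MYL9 at 115.2, PLVAP at 71.58 and FLT1 at 14.61 TPM, and the third alpha globin, HBA-A3, at 48.35 TPM. This order held between neighbours in 12 of 12 libraries, except that PLVAP exceeded HBA-A3 in 10 of 12. Together the 5 haemoglobin genes made up 0.795 to 3.18% of all TPM in the light (median 0.972%) and 0.459 to 1.18% in the dark (median 0.832%). Without light-phase replicate 2, the light-phase range was 0.795 to 1.04%.

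**Figure D1:**
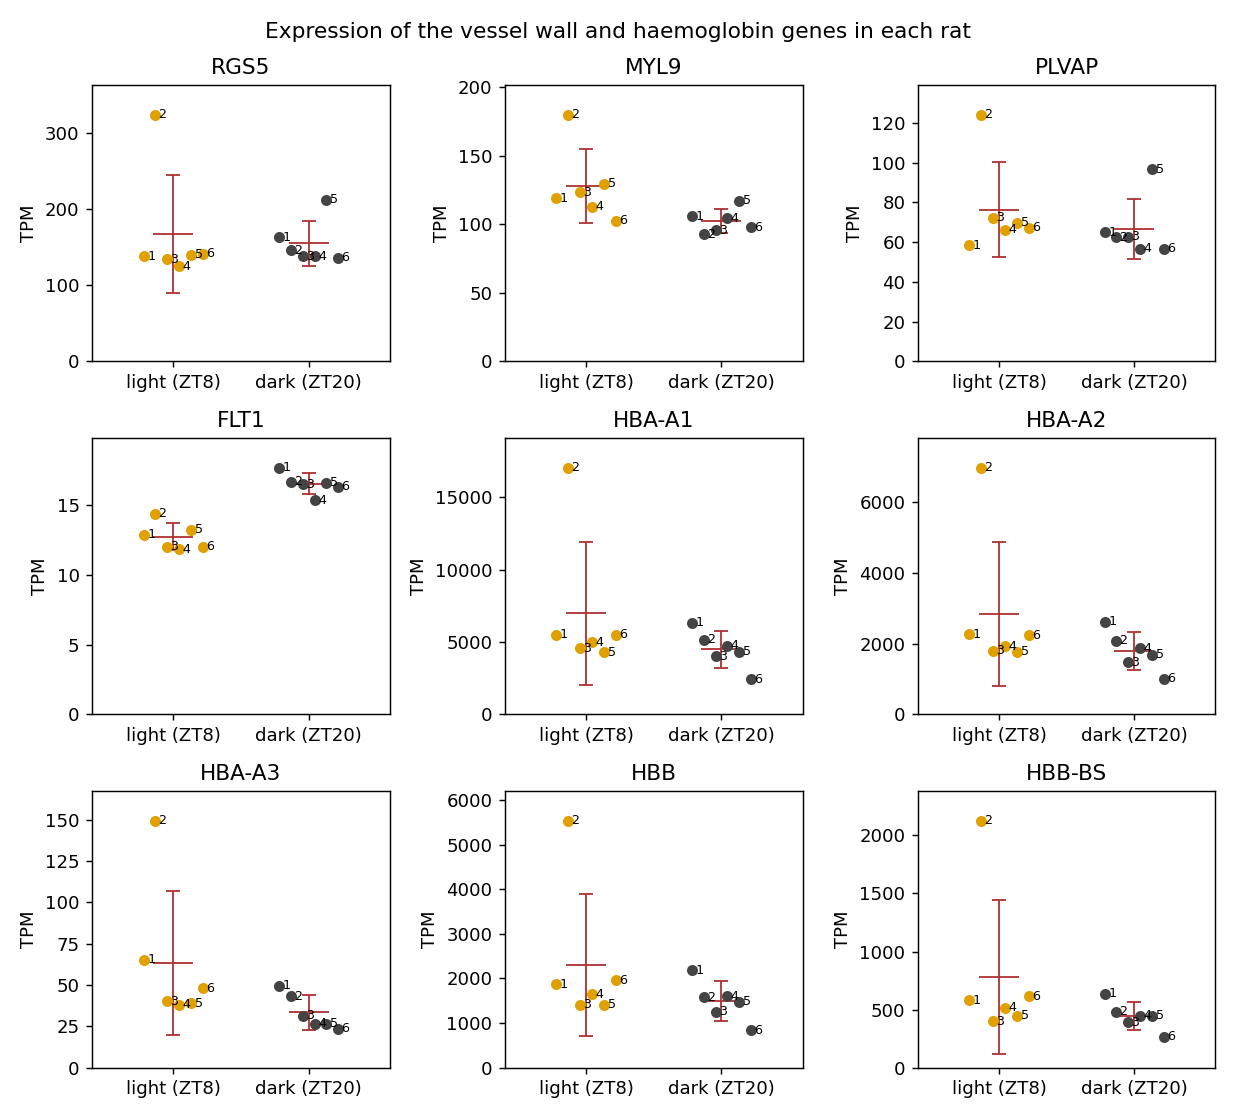
Expression (TPM, linear axes from 0) of the 9 genes in each rat, with light-phase rats in yellow, dark-phase rats in grey, replicate numbers beside the points, and the mean ± SD of each phase in red (n = 6). Light-phase replicate 2 lies above the other light-phase rats in every panel, and FLT1 is the gene whose phases do not overlap.

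The question of the study was whether the choroid plexus transcriptome differs between the light and dark phases. Of the 9 genes, FLT1 was higher in the dark, MYL9 was higher in the light by a call close to the threshold, and the other 7 did not pass the test (limma, FDR below 0.05). Of all 12511 genes tested, 17.6% passed, 9.06% as higher in the dark and 8.58% as higher in the light, and 31% had an unadjusted p below 0.05. The same 2 genes passed without light-phase replicate 2, and also without that library and dark-phase replicate 5. Phases did not overlap in 1 of the 9 genes, against 8.84% of all genes (4.81% with the dark higher and 4.03% with the light higher). This gene, FLT1, was paired with its identifier only through the study's list of genes that differ between the phases. The counts among the 9 genes are thus not independent of how FLT1 came to be included.

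FLT1 (ENSRNOG00000000940), which encodes VEGF receptor 1, a receptor that binds VEGF-A, VEGF-B and placental growth factor, was the vessel wall gene with the clearest phase pattern. It lay between 11.8 and 14.4 TPM in the light (median 12.5) and between 15.3 and 17.7 TPM in the dark (median 16.5). Every dark-phase rat exceeded every light-phase rat, although light-phase replicate 2 was again the highest of its phase. The mean was 12.7 ± 0.979 TPM in the light and 16.5 ± 0.748 TPM in the dark (SD, n = 6 each), a level 29.8% higher in the dark. The log2 fold change was 0.34 (SE 0.044, limma FDR = 0.000226), and a two-sided exact permutation test gave p = 0.00216, the smallest p that 6 rats against 6 allow. It was past the threshold in all 26 alternatives run, with a log2 fold change of 0.29 to 0.38. FLT1 could be paired with its identifier only through the study's list of genes that differ between the phases, which was made from these same libraries, so this test is not independent of how the gene came to be included.

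MYL9 (ENSRNOG00000020246), the regulatory myosin light chain of smooth muscle, which enables contraction when phosphorylated, went the other way. It ranged from 103 to 180 TPM in the light (median 121) and from 92.7 to 117 TPM in the dark (median 101). The phases overlapped. With means of 128 ± 27.2 and 102 ± 8.94 TPM (SD, n = 6 each), MYL9 was 25.1% higher in the light, the log2 fold change being -0.32 (SE 0.099, limma FDR = 0.0383; two-sided exact permutation test, p = 0.00433). Leaving out light-phase replicate 2 lowered the light-phase mean to 117.5 ± 10.4 TPM (n = 5) and gave a log2 fold change of -0.24 (limma FDR = 0.0279). The call was lost without light-phase replicate 3, 4 or 5 or dark-phase replicate 1, 2, 3, 4 or 6, each left out in turn (limma FDR = 0.0535 to 0.0810), and in further alternatives, with the direction kept throughout.

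RGS5 (ENSRNOG00000002730), a regulator of G-protein signalling and a marker of pericytes, did not differ between the phases beyond the spread between rats. It lay between 125 and 325 TPM in the light (median 139) and between 136 and 212 TPM in the dark (median 142). Of the 6 light-phase rats, 5 fell between 125 and 141 TPM. The log2 fold change was -0.05 (95% interval -0.47 to 0.37, limma FDR = 0.884). Without light-phase replicate 2 it was 0.14 (limma FDR = 0.358), so its sign rested on this library.

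PLVAP (ENSRNOG00000017676), the protein of the diaphragms that span the pores of fenestrated endothelium, lay between 58.5 and 124 TPM in the light (median 68.5) and between 56.7 and 96.8 TPM in the dark (median 62.6). The upper ends of both ranges were again light-phase replicate 2 and dark-phase replicate 5. Its log2 fold change was -0.20 (95% interval -0.55 to 0.16, limma FDR = 0.448), and -0.06 without light-phase replicate 2 (limma FDR = 0.774).

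None of the 5 haemoglobin genes passed the test, and the intervals were wide. HBA-A1 (ENSRNOG00000029886) lay between 4289 and 17058 TPM in the light (median 5261) and between 2447 and 6326 TPM in the dark (median 4531). HBB (ENSRNOG00000058105) lay between 1406 and 5535 TPM in the light (median 1759) and between 839 and 2190 TPM in the dark (median 1530). Both genes were thus lower in the dark by their medians, with phases that overlapped. The log2 fold change was -0.51 for HBA-A1 (95% interval -1.18 to 0.15, limma FDR = 0.280) and -0.51 for HBB (95% interval -1.17 to 0.15, limma FDR = 0.279). Without light-phase replicate 2 it was -0.23 in either gene (limma FDR = 0.452 and 0.455).

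HBA-A2 (ENSRNOG00000047321) ranged from 1772 to 6956 TPM in the light (median 2078) and from 1009 to 2618 TPM in the dark (median 1773), and the log2 fold change was -0.54 (limma FDR = 0.264). HBB-BS (ENSRNOG00000047098) ranged from 398 to 2125 TPM in the light (median 547.5) and from 268 to 638 TPM in the dark (median 446), the log2 fold change being -0.60 (limma FDR = 0.256). Each of these ranges had its maximum in light-phase replicate 2 or, in the dark, in dark-phase replicate 1. Without light-phase replicate 2 the log2 fold change was -0.25 in HBA-A2 (limma FDR = 0.413) and -0.27 in HBB-BS (limma FDR = 0.363).

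HBA-A3 (ENSRNOG00000045989) had the largest difference of the 9 genes in log2 terms. It lay between 38.1 and 149 TPM in the light (median 44.1) and between 23.6 and 49.5 TPM in the dark (median 29.0). The phases overlapped, since dark-phase replicates 1 and 2 (49.5 and 43.1 TPM) exceeded several light-phase rats. The log2 fold change was -0.79 (SE 0.30, 95% interval -1.44 to -0.14), with an unadjusted p of 0.0208 that did not hold after adjustment (limma FDR = 0.0899; two-sided exact permutation test, p = 0.0303). Without light-phase replicate 2 the log2 fold change was -0.52 (limma FDR = 0.0913; exact permutation test, p = 0.0519). The alpha globins are a family of similar genes, as are the beta globins, so how RSEM divided reads among the copies is uncertain. Transcript sequences were not compared here.

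**Figure D2:**
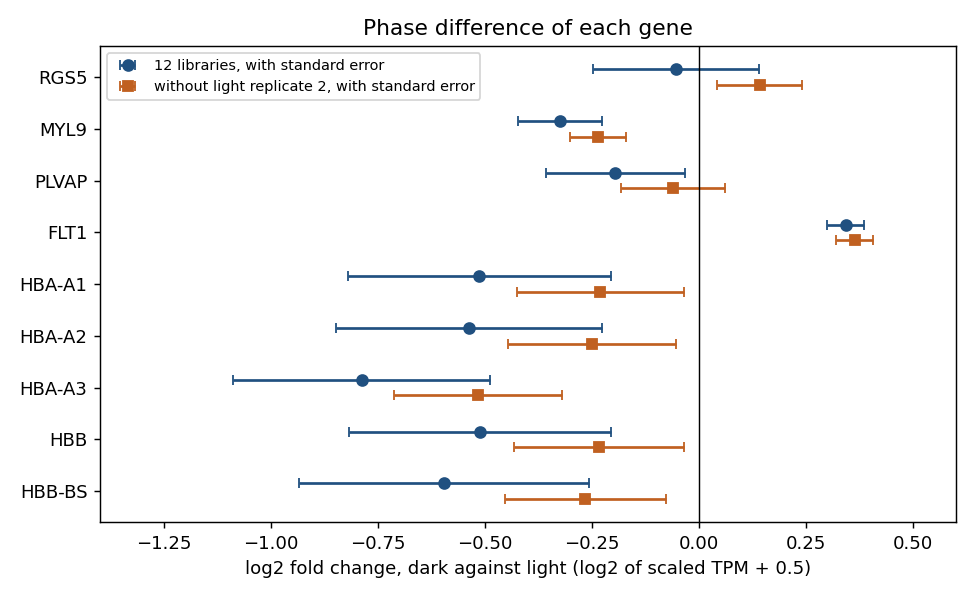
Log2 fold change, dark against light phase, of the 9 genes from the limma fit, with its standard error, over all 12 libraries (circles) and without light-phase replicate 2 (squares). FLT1 lies to the right of 0 and MYL9 to the left in both fits, RGS5 changes side, and the 5 haemoglobin genes move towards 0 without this library.

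Rats of the same phase differed widely in most of these genes, in the light mainly through 1 library, replicate 2. Light-phase replicate 2 was at 3.36 to 4.12 times the median of the other light-phase rats in the 5 haemoglobin genes. The excess was smaller in the vessel wall genes, at 2.35 times in RGS5, 1.85 times in PLVAP, 1.51 times in MYL9 and 1.19 times in FLT1. Of all genes tested, 0.384 to 0.711% stood as high or higher than the haemoglobin genes in this library relative to the other light-phase rats. The share was 1.76% for RGS5 and 27.7% for FLT1. These shares used log2 scaled TPM, whereas the ratios of this paragraph used TPM as deposited. On log2 scaled TPM, FLT1 lay only 0.122 above the median of the other light-phase rats. Dark-phase replicate 5 reached 1.54 times the median of the other dark-phase rats in RGS5 and 1.55 times in PLVAP, but 0.842 to 1.00 times in the haemoglobin genes. Vessel wall and blood transcripts were thus high together in light-phase replicate 2, whereas in dark-phase replicate 5 RGS5 and PLVAP were high with haemoglobin near the other rats. MYL9 was at 1.2 times and FLT1 at 1.01 times the median of the other dark-phase rats there. Among the dark-phase rats, replicate 1 had 2.10 to 2.61 times the level of replicate 6 in the haemoglobin genes.

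Light-phase replicate 2 also set the coefficient of variation (SD as a percentage of the mean) in the light. In HBA-A1 this was 70.9% with it and 11.1% without it (n = 5), against 28.6% in the dark. RGS5 gave 46.3% with it, 4.86% without it and 19.0% in the dark. FLT1 gave 7.70% with it, 5.03% without it and 4.53% in the dark. When the mean absolute deviation from the phase median was compared between phases on the log2 scale, no gene of the 9 passed (two-sided exact permutation test, p = 0.582 to 0.942), and 4.99% of all genes had p below 0.05 (3.1% with the wider spread in the light). The deviation was larger in the light for all 9 genes with this library, and larger in the dark for all 9 without it.

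Other markers in light-phase replicate 2 were set beside these values. TAGLN, an actin-binding protein of smooth muscle, was at 2.12 times the median of the other light-phase rats, TPM1 (tropomyosin) at 1.37 times and CALD1 (caldesmon) at 1.45 times. The endothelial genes TMEM204 and CLEC14A were at 1.89 and 1.55 times, whereas CAVIN2, a component of caveolae, was at 0.985 times. Of the fibroblast markers, DCN, a matrix proteoglycan, stood at 0.527 times, PDGFRA, a growth factor receptor, at 0.955 times and BGN, also a matrix proteoglycan, at 2.62 times. BPGM, a red cell enzyme that is also made by other cells, was at 1.17 times. Of the epithelial markers, TTR was lowest at 0.839 times, and the others lay between 0.89 times (FOLR1) and 1.03 times (CLIC6). CALD1, TMEM204, CLEC14A, BGN and BPGM were chosen after their values were seen. The summed level of the 5 mural genes was 814 TPM in this library and 422 TPM at the lowest in the light, against 399 to 520 TPM in the dark. All light-phase rats other than replicate 2 lay within that dark-phase range. The part of tissue composition in these differences was not tested.

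**Figure D3:**
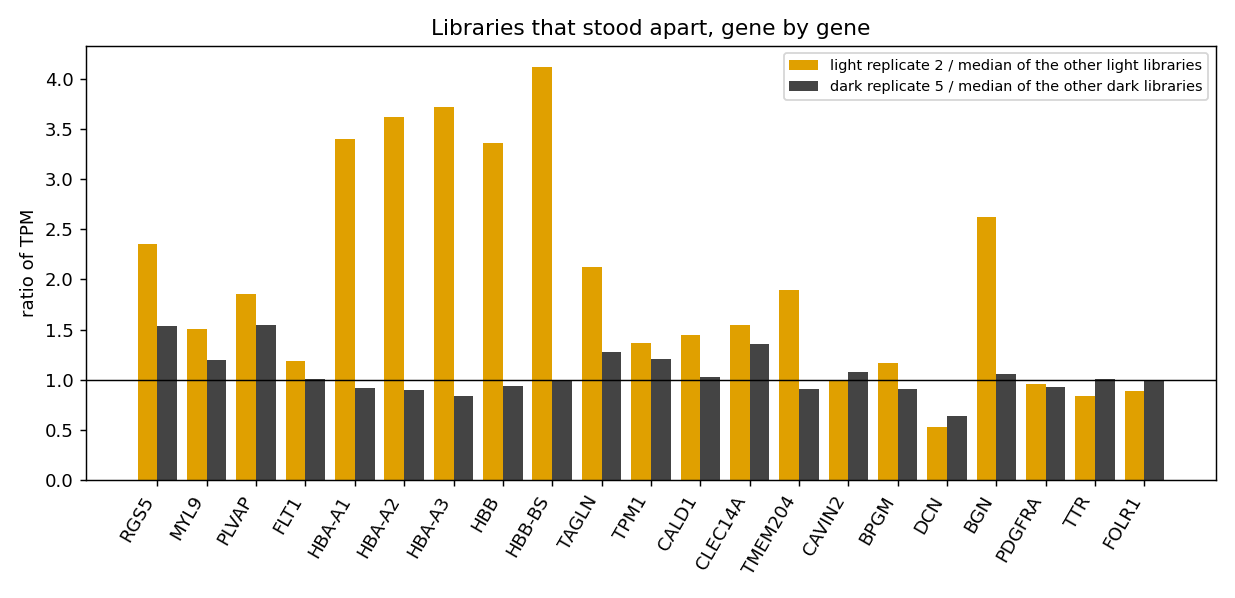
Ratio of TPM (linear axis from 0) in light-phase replicate 2 to the median of the other light-phase rats (yellow) and in dark-phase replicate 5 to the median of the other dark-phase rats (grey), for the 9 genes and further markers. The haemoglobin bars reach 3.36 to 4.12 in light-phase replicate 2 and stay between 0.842 and 1.00 in dark-phase replicate 5.

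The haemoglobin genes varied together between rats. Over the 12 libraries, Pearson's r on log2 scaled TPM was 0.908 to 0.997 in the 10 pairs among them, and all 10 passed Benjamini-Hochberg adjustment over the 36 pairs computed. HBA-A1 and HBB correlated at r = 0.994 (Spearman's rho 0.965, permutation p = 1e-05, the smallest that 100000 permutations can give, adjusted p = 6e-05 for r), and at r = 0.966 without the 2 libraries farthest from the median of HBA-A1. Without light-phase replicate 2, r in the 10 pairs was 0.74 to 0.989. Within the light r was 0.955 to 0.998 and within the dark 0.749 to 0.993 (n = 6 each, as a description). The lowest values belonged to pairs that include HBA-A3. Pairs within the alpha or within the beta globins carry the uncertain division of reads among similar copies, and its part in r was not tested.

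The proportions among the haemoglobin genes were narrower than their levels, although those within a globin family depend on how reads were divided among similar copies. HBA-A1 made up 70.3 to 71.9% of the alpha globin TPM in the light and 70.3 to 72.8% in the dark. HBA-A3 contributed 0.646 ± 0.0958% in the light and 0.537 ± 0.102% in the dark (SD, n = 6 each). HBB-BS made up 27.7% of the TPM of HBB and HBB-BS in light-phase replicate 2, above the 21.98 to 24.2% of the other light-phase rats and the 21.7 to 24.2% of the dark-phase rats. Alpha over beta globin TPM was 3.24 ± 0.168 in the light and 3.27 ± 0.159 in the dark. A further beta globin gene, LOC100134871, was the gene most similar to HBB outside the 9 (r = 0.992, and 0.978 without light-phase replicate 2), with 2890 ± 2126 TPM in the light and 1844 ± 490 TPM in the dark. With it counted among the beta globins, the ratio of alpha to beta was 1.601 to 1.83 in the light and 1.61 to 1.72 in the dark. Next to it came ENSRNOG00000000167 (r = 0.980), at 5.12 and 3.04 TPM, then ENSRNOG00000028198 (r = 0.937), ENSRNOG00000019183 (r = 0.931) and ENSRNOG00000011541 (r = 0.930). These have no symbol in the tables used here.

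The relation between haemoglobin and vessel wall genes depended on which libraries were included. Of the 20 pairs of a haemoglobin and a vessel wall gene, 13 passed adjustment by Pearson's r and 0 by Spearman's rho. HBB and RGS5 had r = 0.762 (rho 0.497, permutation p = 0.0257 for r, adjusted p = 0.0487), but r = 0.177 without light-phase replicate 2 and 0.566 without the 2 libraries farthest from the median of RGS5. HBB and PLVAP had r = 0.683 (rho 0.294, permutation p = 0.0298 for r), but r = 0.159 without this library. In all 20 pairs r lay between -0.477 and 0.271 without it, and between -0.526 and 0.586 without the 2 farthest libraries, with 4 pairs above 0.5, all with RGS5. Within the dark phase alone r ranged from -0.24 to 0.835 (n = 6, as a description), and the 5 pairs above 0.5 were those of FLT1 with each haemoglobin gene.

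**Figure D4:**
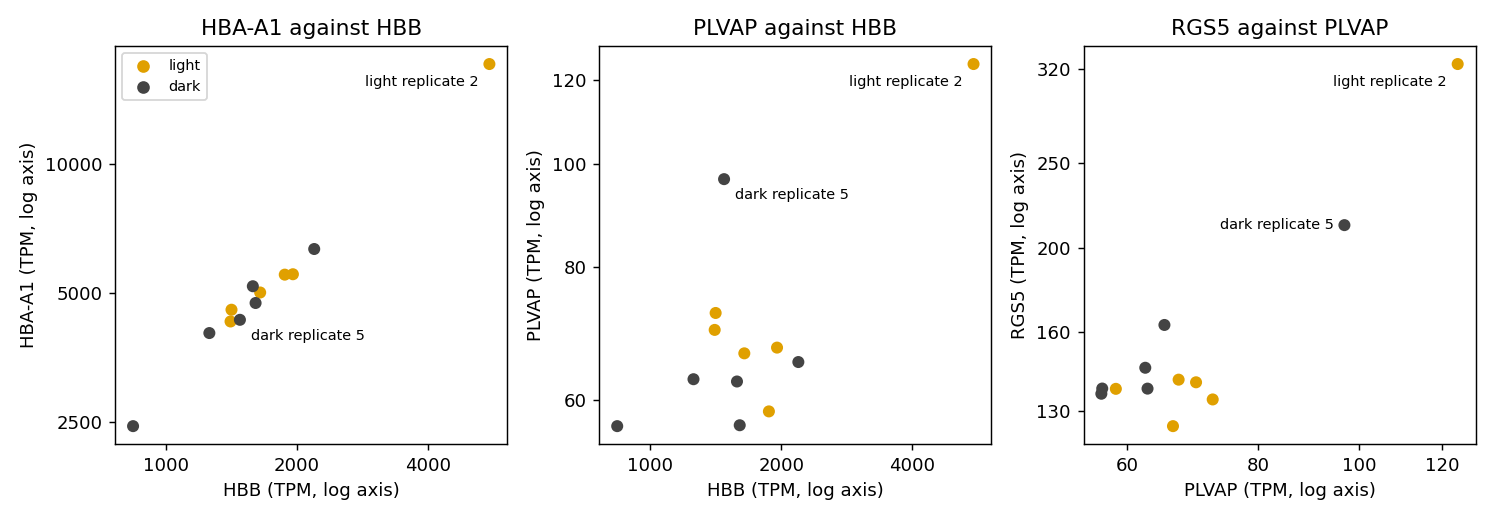
TPM of HBA-A1 against HBB, PLVAP against HBB and RGS5 against PLVAP in the 12 rats (log axes, light phase yellow, dark phase grey). HBA-A1 follows HBB across all rats (r = 0.994), while dark-phase replicate 5 is high in PLVAP and RGS5 with an HBB level like that of the other rats.

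Among the vessel wall genes, RGS5 and PLVAP were related through the same 2 libraries. Their r was 0.9 over the 12 libraries (rho 0.42, permutation p = 0.00333 for r, adjusted p = 0.0109), 0.743 without light-phase replicate 2, and 0.079 without the 2 libraries farthest from the median of RGS5. RGS5 divided by PLVAP was 1.85 to 2.61 in the light (median 2.06) and 2.19 to 2.51 in the dark (median 2.37). MYL9 and RGS5, both counted as mural, had r = 0.687 with all libraries and 0.0564 without light-phase replicate 2. MYL9 was instead closest to TAGLN (r = 0.970, and 0.947 without light-phase replicate 2) and TPM1 (r = 0.962 and 0.913), both genes of the contractile apparatus. They were followed by ENSRNOG00000011203 (r = 0.953). The genes closest to RGS5 were ENSRNOG00000036960 (r = 0.975), ENSRNOG00000017208 (r = 0.974) and ENSRNOG00000032788 (r = 0.973). Those closest to PLVAP were ENSRNOG00000027990 (r = 0.963), ENSRNOG00000014574 (r = 0.954) and ENSRNOG00000004346 (r = 0.950), and none of these is paired with a symbol here.

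FLT1 separated by phase, unlike RGS5, MYL9 and PLVAP. TPM1 of the mural list also did so, with the light higher. FLT1 was paired only through the list of genes that differ between the phases, whereas RGS5, MYL9 and PLVAP were not. The contrast was thus partly set by the pairing. The 3 genes most similar to FLT1 over the 12 libraries were CRY1, PDZRN3 and KPNA3. CRY1, a repressor of the circadian clock, had r = 0.959, PDZRN3, a ubiquitin ligase, r = 0.959 and KPNA3, an importin, r = 0.958. CRY1 had 6.49 ± 1.38 TPM in the light and 23.2 ± 0.851 TPM in the dark. PDZRN3 had 5.76 ± 0.701 and 9.16 ± 0.774 TPM, and KPNA3 had 11.3 ± 0.854 and 16.8 ± 1.17 TPM (SD, n = 6 each). Since these genes separate by phase, the coefficients mainly describe that separation. Within the light phase, FLT1 had r = 0.801 with MYL9, 0.731 with RGS5 and 0.638 with PLVAP (n = 6, as a description), with light-phase replicate 2 the highest rat in all 4 genes. Within the dark phase these were -0.0713, 0.322 and 0.236 (n = 6).

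Lists of markers place the 9 genes among others of their cell type, as far as identifiers could be paired with symbols. Of 21 mural genes listed, 5 could be paired, and 3 of the 5 were higher in the light (8.58% of all genes were), with a list median of -0.29 against -0.01 over all genes. These were MYL9, TAGLN (54.7 ± 23.2 TPM in the light and 31.3 ± 4.24 TPM in the dark, log2 fold change -0.73, limma FDR = 0.0265) and TPM1 (66.0 ± 10.5 and 54.2 ± 4.68 TPM, log2 fold change -0.29, limma FDR = 0.0188). CALD1 had a log2 fold change of -0.12 (limma FDR = 0.291). All 3 belong to the contractile apparatus of smooth muscle, as does CALD1. Over the 12 libraries MYL9 varied closely with TAGLN (r = 0.970) and TPM1 (r = 0.962), so these are not 3 independent calls. The count of 3 was the same without light-phase replicate 2, but was 1 when light-phase replicate 5, dark-phase replicate 2, dark-phase replicate 3 or dark-phase replicate 6 was left out. It was 1 with TPM as deposited and 0 with summed FPKM over TPM as covariate. Whether the 3 genes differ from the pericyte marker RGS5 in their phase change was not tested.

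Of 26 endothelial genes, 5 were paired, and FLT1 was higher in the dark while CAVIN2 was higher in the light (40.3 ± 2.22 against 36.4 ± 2.17 TPM, log2 fold change -0.17, limma FDR = 0.0199). Of these calls, FLT1 alone was kept with TPM as deposited and with summed FPKM over TPM as covariate. In both TMEM204 and CLEC14A the log2 fold change was -0.29 (limma FDR = 0.180 for the former and 0.237 for the latter). In the VEGF pathway, 3 of 10 genes were paired and all 3 were higher in the dark, against 9.06% of all genes, but 1 with summed FPKM over TPM as covariate. VEGFB, a ligand of FLT1, had 38.7 ± 5.29 TPM in the light and 51.2 ± 4.67 TPM in the dark (log2 fold change 0.38, limma FDR = 0.0152). NRP1, a co-receptor for VEGF, had 33.4 ± 2.32 and 42.4 ± 2.59 TPM (log2 fold change 0.32, limma FDR = 0.000357). Except for PLVAP, the genes of these lists were paired through the study's tables of genes that differ between the phases, so the counts do not describe the whole pathway and are not independent evidence of its direction.

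Markers of other cells that blood, stroma or attached tissue could bring along were read as well. Of 20 erythroid genes 6 were paired, the 5 haemoglobin genes and BPGM, and 0 passed the limma test, against 17.6% of all genes. An unadjusted limma p below 0.05 was found in 2 of the 6, HBA-A3 and BPGM, near the share of 31% over all genes. BPGM had a log2 fold change of -0.14 (limma FDR = 0.139). PTPRC, which marks leukocytes, lay between 1.93 and 2.97 TPM in the light and between 1.27 and 2.14 TPM in the dark (limma FDR = 0.0470, lost without light-phase replicate 2 and in most other alternatives). ITGA2B of platelets lay between 1.25 and 1.65 TPM in the light and between 0.75 and 1.38 TPM in the dark (log2 fold change -0.40, limma FDR = 0.0576), and passed in 3 of 24 alternatives. Fibroblast genes gave 0 of 3 past the limma test and 0 of 3 at an unadjusted p below 0.05, against 17.6% and 31% of all genes. DCN had a log2 fold change of -0.07, PDGFRA 0.06 and BGN -0.35. No lymphocyte gene was paired. PTPRC and ITGA2B were paired through the same tables of genes that differ between the phases. Of 7 epithelial genes, 4 passed the limma test, against 17.6% of all genes, with KL, CLIC6 and OTX2 higher and AQP1 lower in the dark. This count was 1 with summed FPKM over TPM as covariate. FOLR1, a folate receptor and next to TTR the most abundant of the list, had a log2 fold change of -0.03 (limma FDR = 0.832). The part of these cells in the vessel and blood transcripts was not tested.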

How the data were processed

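RNA was sequenced from whole choroid plexus of 12 rats (paired-end reads, NEB Next Ultra kit). The authors mapped reads to Rnor_6.0 with STAR 2.7.9a, and RSEM 1.3.3 then gave the deposited TPM and FPKM of each gene, both taken here as the authors made them. Their own differential expression used DESeq2 on STAR counts, which were not used here. The FPKM values served only to estimate relative depth, from steps in 610 weakly expressed genes (84.6% of 2950 values within 0.1 of a whole read), and to express summed FPKM over summed TPM, which was 0.953 to 0.987 in the light phase and 0.934 to 0.960 in the dark phase. The labels give a nominal output of 12 Gb, but the reads counted per gene are not known, so the spread between rats is the error given.

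Each library was scaled by a trimmed mean of ratios (30% of ratios and 5% of levels trimmed at each end), with factors of 0.937 to 1.04. The fit used log2(scaled TPM + 0.5), which understates changes of weak genes. Genes averaging 1 TPM or more were fitted with limma 3.58.1 in R 4.3.3, with phase alone, a variance trend and Benjamini-Hochberg adjustment (FDR below 0.05). A positive log2 fold change is higher in the dark phase. Exact tests enumerated 924 assignments, or 462 without light-phase replicate 2. Correlations and figures used Python 3.11.15 (scipy 1.17.1, numpy 2.4.6, matplotlib 3.10.9, pandas 2.3.3), and upstream regions were aligned with Biopython 1.88. The scripts were tested on simulated data.

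Symbols were paired with identifiers through the study's gene tables, held in part, for 3690 genes, and through no other source. The 9 genes and the marker lists were chosen with earlier results of these data known. Genes outside the 9 were named if they passed the FDR threshold in a marker list, were among the 2 most abundant of a list, or had the highest r with HBB (5 genes) or with a vessel wall gene (3 genes each). Genes named outside this rule are marked in the text as chosen after their values were seen. Alternatives changed the scaling, pseudocount, filter, variance, weights, covariates, replicate block and libraries. The list of neuronal and glial markers is not reported here, and cerebrospinal fluid metabolites were not analysed here.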

Additional observations from a re-analysis of the deposited data

Results flagged for a closer look

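In groups of 6, a value was listed here when its gap to the nearest other rat exceeded 0.625 of the range of its phase. Of the 18 groups (9 genes in 2 phases), 10 held such a value, where chance gives about 1 in 20, or 0.9 of 18. The 9 genes vary together and are not independent, so these are not 10 separate events.

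Light-phase replicate 2 held 8 of the 10. It stood above the other light-phase rats in HBA-A1 (17058 TPM), HBA-A2 (6956 TPM), HBA-A3 (149.26 TPM), HBB (5535 TPM) and HBB-BS (2125 TPM). It did so as well in RGS5 (324.63 TPM), MYL9 (180.19 TPM) and PLVAP (124.26 TPM). FLT1 in this library (14.4 TPM) was the highest of its phase without standing apart by this measure.

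Dark-phase replicate 5 held the other 2, in RGS5 (212.33 TPM) and PLVAP (96.81 TPM), with HBB at 1478 TPM inside the range of the other dark-phase rats. The cause of either pattern was not tested.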

How the results depend on the processing

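FLT1 kept its direction and its call under all 26 alternatives (limma FDR or exact permutation p from 0.000132 to 0.0454). PLVAP and the haemoglobin genes other than HBA-A3 kept their direction and did not pass in any alternative. With summed FPKM over TPM as covariate the log2 fold changes were larger, at -0.94 in HBA-A1, -1.001 in HBA-A2, -1.56 in HBA-A3, -0.95 in HBB, -1.17 in HBB-BS, -0.44 in RGS5 and -0.38 in PLVAP, and PLVAP was -0.02 with summed haemoglobin as covariate. The MYL9 log2 fold change was -0.30 with TPM as deposited (FDR = 0.0820), -0.32 without a filter (FDR = 0.0607), -0.46 with summed FPKM over TPM as covariate (FDR = 0.150) and -0.22 with summed haemoglobin as a covariate (FDR = 0.122), so its call was lost. With 1 library left out it was -0.38 to -0.24 and was called in 4 of 12 fits. RGS5 reversed to 0.061 with array weights, 0.21 with summed haemoglobin as a covariate and 0.05 without both light-phase replicate 2 and dark-phase replicate 5 (an alternative chosen after seeing the data), and was -0.14 to 0.14 with 1 library left out. HBA-A3 had -0.79 in the exact permutation test (p = 0.0303), which was not adjusted over genes.

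Replicate numbers do not pair the rats (same-number correlations of -0.107 to 0.0462, none of 6 a best match). With the replicate block, HBA-A3 had -0.79 (FDR = 0.0229) and MYL9 -0.32 (FDR = 0.0675).

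Of the 9 genes, 2 passed, but 1 with TPM as deposited, without a filter or with that FPKM covariate, and 1 to 2 with 1 library left out. The FPKM covariate left 1 endothelial, 1 VEGF pathway and 1 epithelial gene called (from 2, 3 and 4). Over all genes, 2208 passed, 341 with the FPKM covariate and 1692 to 2255 with 1 library left out. The FPKM to TPM ratio differs between the phases, so its effect and that of the phase cannot be told apart in full. Pairs with r above 0.5 numbered 28, but 14 without the 2 farthest libraries, 18 within the dark phase, 36 within the light phase and 11 without light-phase replicate 2 (also chosen after seeing the data).

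The difference in spread, dark minus light, changed sign in all 9 genes without light-phase replicate 2. With 1 library left out its range was -0.161 to 0.117 for RGS5, -0.088 to 0.0196 for MYL9, -0.119 to 0.0861 for PLVAP, -0.0235 to 0.000859 for FLT1, -0.189 to 0.192 for HBA-A1, -0.165 to 0.212 for HBA-A2, -0.24 to 0.131 for HBA-A3, -0.225 to 0.138 for HBB and -0.316 to 0.0663 for HBB-BS. With unknown depth, counting error could not be separated from the spread between rats.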
